A study of Homo sapiens with 6 samples.

Results

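The genes described here belong to families best known for proteins that gather at the growing plus ends of microtubules. The families are the cytoplasmic linker proteins (CLIP1, CLIP2, CLIP3 and CLIP4), the CLIP-associating proteins (CLASP1 and CLASP2) and the end-binding proteins EB1, EB2 and EB3 (MAPRE1, MAPRE2 and MAPRE3). The genes need not all share that place in the cell. They were taken by name, as the family of CLIP1, a gene that the study followed up after seeing these arrays. All 9 genes were on the array, out of 19775 genes in all. They were read by 28 of 54613 probe sets, each annotated to 1 of the 9 symbols, and 0 further probe sets listed a member beside another gene. Of the 28 probe sets, 14 had a mean signal above the median of all probe sets.

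RNA came from human umbilical vein endothelial cells (HUVECs), primary cells cultured in an endothelial growth medium. They had been transfected transiently with ANRIL-specific siRNA, which targets a long noncoding RNA (CDKN2B-AS1 in the annotation) of the locus that also holds CDKN2A and CDKN2B, or with control scrambled siRNA. Each group had 3 Affymetrix Human Genome U133 Plus 2.0 arrays, 1 per transfected sample. Nothing in the labels says whether the 3 samples of a group came from separate donors or separate cultures, so p-values measure the spread between these samples, which may be technical. The duplex against ANRIL is printed since it is the agent whose effect was measured. Its strands read 5′ to 3′, with bases 2 to 8 of the antisense strand (the seed of a guide strand) in capitals.
ANRIL siRNA sense strand: ggauaugugccaugaguaagaauaa
ANRIL siRNA antisense strand: uUAUUCUUacucauggcacauauccau

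A growing microtubule carries a cap of newly added tubulin. End-binding proteins recognise that cap on their own and recruit most other plus-end proteins, so they form the core of the group. CLIP proteins bind through CAP-Gly domains to the C-terminal tails of end-binding proteins and of tyrosinated alpha-tubulin, and CLIP-170, the product of CLIP1, brings dynactin to the tip. CLASP proteins slow shrinkage, promote rescue and attach microtubules to the cell cortex and the Golgi apparatus. In endothelial cells, microtubule growth towards the cell edge is known for its part in polarity, migration and the barrier between cells.

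Values are log2 signals after RMA (robust multi-array average), which corrects background, brings the arrays to a common distribution and summarises the probes of a probe set. A probe set's signal also depends on its probes, so levels are compared between arrays and not between probe sets. Each difference subtracts the control siRNA mean from the ANRIL siRNA mean on that log2 scale, with 3 arrays per group. They are given with the SE of a limma fit over all probe sets and a p-value adjusted over all of them by the Benjamini-Hochberg method. In these names, _s_at and _x_at mark probe sets whose probes can match more than 1 transcript. Array medians lay between 6.18 and 6.23 with ANRIL siRNA and between 6.14 and 6.18 with control siRNA. Pairs of arrays correlated at 0.9971 to 0.9977 within groups and at 0.9964 to 0.9974 between them, across probe sets. The 1 probe set for ANRIL lay near the floor of the array, at percentile 9.39 of signal, with 3.69, 4.05 and 4.05 with ANRIL siRNA and 4.08, 4.05 and 3.95 with control siRNA (limma adjusted p = 0.666), and so gave no check of the knockdown. All 10 endothelial markers, among them PECAM1, CDH5 and VWF, lay at percentile 87.9 of signal or above. All 10 were lower with ANRIL siRNA, with a median of −0.17 that was −0.10 after cyclic loess. The groups did not overlap at 7 of them, where 12.8% of all genes were lower without overlap. None of the 10 markers passed (limma, smallest adjusted p = 0.125). Of the 10, 6 had an unadjusted p under 0.05, where 8.16% of all genes were lower at that mark. Their log2 values summed to between 112.8 and 113.7 with ANRIL siRNA and between 114.9 and 115.6 with control siRNA, with no overlap. Of 13 markers of leukocytes, smooth muscle, fibroblasts and epithelium 6 lay above the median signal, ACTA2 the highest at percentile 92.9. The others above the median were COL1A1 (87.8), MYH11 (72.1), DES (65.8), KRT5 of epithelium (60.1) and CNN1 (53.7). Among leukocyte markers PTPRC was at percentile 14.7, CD14 at 31.5 and CD3D at 49.0. Of the other epithelial markers CDH1 was at 16.3 and EPCAM at 39.9, and PDGFRA and PDGFRB were at 38.7 and 49.2. The log2 values summed over those 13 markers lay between 84.9 and 85.7 with ANRIL siRNA and between 84.6 and 85.3 with control siRNA, which overlap. Singly, 8 of the 13 were above 0 and 5 below. ACTA2 was lower without overlap, by −0.26 ± 0.06 (limma adjusted p = 0.147), and by −0.18 after cyclic loess. As a sign of RNA quality, the 3′ minus 5′ difference of the GAPDH control probe sets was 0.046, 0.091 and 0.035 with ANRIL siRNA and −0.010, 0.013 and −0.0063 with control siRNA, with no overlap. That of the ACTB control probe sets was 0.78, 0.81 and 0.56 with ANRIL siRNA and 0.56, 0.59 and 0.49 with control siRNA, with overlap. The part of these markers and of RNA quality in the results was not tested.

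None of the 28 probe sets passed an adjusted p of 0.05. Over the whole array 0 of 54613 did (0%), so that count says nothing particular to these genes. At an unadjusted p under 0.05 there were 2 of 28, or 7.14%, where 15.1% of all probe sets met that mark. Of these 2 members 1 was higher and 1 lower, and over the array 8.96% were higher and 6.14% lower. The groups did not overlap at 5 of 28, or 17.9%, against 21% of all probe sets. The 2 that were higher and 3 that were lower stood against 11% and 9.97% of the array. By both marks the members stood near or under the background of the array. With an intensity-trended robust prior, the alternative that called 0.63% of all probe sets, 0 of 28 passed, and their smallest adjusted p was 0.168. The differences had a median of −0.01 over the 28 and 0.01 over all probe sets, and 14 lay above 0 and 14 below. A plot gives every value by gene, on an axis that spans the signals of all members and so hides small differences.

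**Figure D1:**
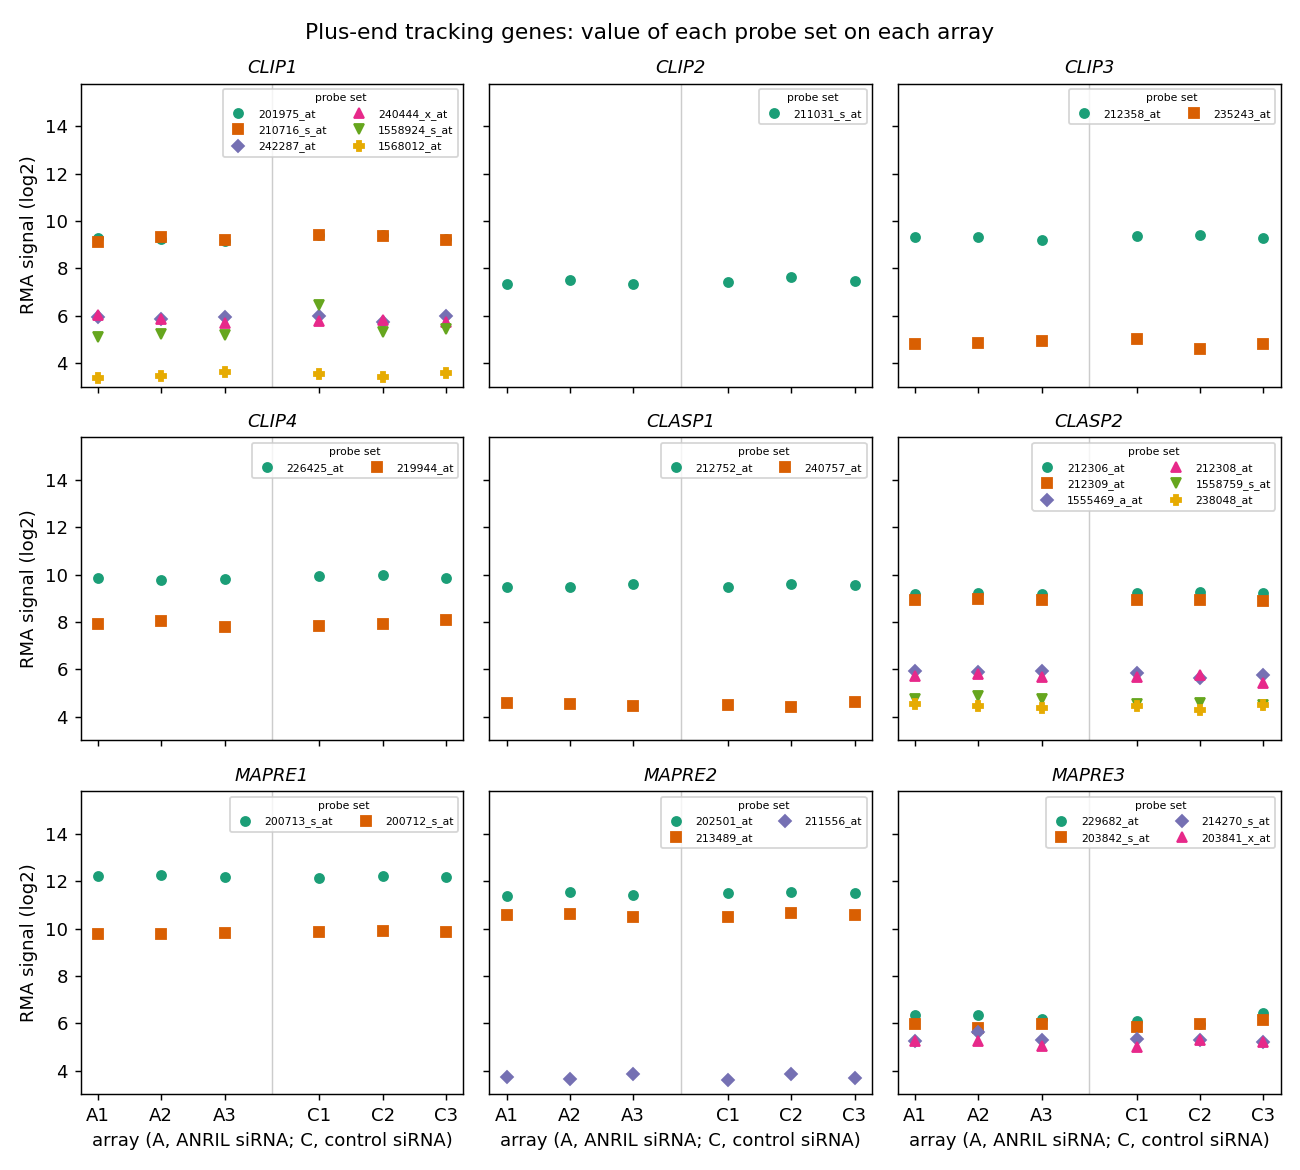
RMA log2 signal (vertical axis) of each of the 28 probe sets on each array, 1 panel per gene, with ANRIL siRNA arrays A1 to A3 left of control siRNA arrays C1 to C3. All panels share a vertical axis on which differences of the size found at most probe sets are hard to see. CLIP1 probe set 1558924_s_at stands at 6.46 on control siRNA replicate 1 and between 5.09 and 5.44 on the other 5 arrays.

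The end-binding genes come first, as the core of the group. MAPRE1, which encodes EB1, the end-binding protein most often used to mark growing tips, had 12.23, 12.25 and 12.16 with ANRIL siRNA and 12.12, 12.24 and 12.16 with control siRNA at its brighter probe set, 200713_s_at. The 2 groups covered nearly the same range. The difference was 0.04 ± 0.07 (SE, n = 3 per group, limma adjusted p = 0.793), and its 95% interval ran from −0.11 to 0.19, or from 0.928-fold to 1.14-fold. Its other probe set, 200712_s_at, had 9.79, 9.79 and 9.82 with ANRIL siRNA and 9.84, 9.88 and 9.85 with control siRNA. These groups did not overlap, but the difference was −0.06 ± 0.06 (limma adjusted p = 0.679). The median of all probe sets of like signal, the brightest decile, was −0.08, so the dimmer MAPRE1 probe set lay close to it and the brighter one 0.12 above it. After cyclic loess, which removes that trend with signal, the 2 probe sets were at 0.12 and 0.02.

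MAPRE2 encodes EB2, which has a weaker affinity for CLIP proteins than EB1. Its brightest probe set, 202501_at, had 11.38, 11.55 and 11.44 with ANRIL siRNA and 11.48, 11.55 and 11.51 with control siRNA. The groups overlapped, with a difference of −0.06 ± 0.07 (limma adjusted p = 0.727, 95% interval −0.21 to 0.10). The next, 213489_at, had 10.56, 10.60 and 10.51 against 10.48, 10.67 and 10.59 in the control arrays, a difference of −0.02 ± 0.07. The third, 211556_at, lay at percentile 4.9 of signal and differed by 0.02 ± 0.08. The sign of all 3 MAPRE2 differences turned when quantile normalization was repeated and under cyclic loess, so no direction could be given for MAPRE2.

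MAPRE3 encodes EB3, the end-binding protein best known from brain and muscle. Only 1 of its 4 probe sets, 229682_at, lay above the median signal, at percentile 50.9. That probe set had 6.34, 6.36 and 6.19 with ANRIL siRNA and 6.11, 5.95 and 6.43 with control siRNA. Control siRNA replicate 3 was the highest of the 6 arrays, and the groups overlapped. The difference was 0.13 ± 0.11 (limma adjusted p = 0.593), with the widest interval of any bright member, −0.12 to 0.39. Without control siRNA replicate 3 it was 0.27, and without control siRNA replicate 2 it was 0.03. The other 3 probe sets differed by −0.07, 0.10 and 0.02.

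CLIP1 was read by 6 probe sets, and they did not move alike. The brightest, 201975_at, had 9.26, 9.24 and 9.14 with ANRIL siRNA and 9.42, 9.39 and 9.22 with control siRNA. The lowest control array lay below the 2 highest ANRIL siRNA arrays, so the groups overlapped. The difference was −0.13 ± 0.08 (limma adjusted p = 0.429, 95% interval −0.30 to 0.04), that is 0.913-fold with an interval of 0.812-fold to 1.03-fold. The second, 210716_s_at, had 9.13, 9.33 and 9.17 with ANRIL siRNA and 9.40, 9.36 and 9.17 with control siRNA, a difference of −0.10 ± 0.08 (limma adjusted p = 0.584). Over the 6 arrays these 2 correlated at r = 0.763, given as a description. Bright probe sets tended to lie lower with ANRIL siRNA, with a median of −0.07 in the decile that holds both, and after cyclic loess the 2 differences were −0.06 and −0.03.

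The largest difference of any member was at a dim CLIP1 probe set, 1558924_s_at, at percentile 36.4 of signal. It had 5.09, 5.20 and 5.16 with ANRIL siRNA and 6.46, 5.29 and 5.44 with control siRNA. All 3 ANRIL siRNA arrays were below all 3 control arrays, but control siRNA replicate 1 stood 1.03 above the next array. The difference was −0.58 ± 0.24 (limma adjusted p = 0.307, 95% interval −1.12 to −0.04). Without control siRNA replicate 1 it was −0.21 (adjusted p = 0.306), and leaving out any other array in turn gave −0.55 to −0.80. The SD was 0.64 among the control arrays and 0.06 among the ANRIL siRNA arrays.

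The other 3 CLIP1 probe sets, 242287_at, 240444_x_at and 1568012_at, differed by 0.00, 0.09 and −0.01. At 242287_at control siRNA replicate 1 was at 5.97, between the other 2 control arrays, and at 1568012_at, near the floor of the array, it was at 3.52, beside 3.41 and 3.56. That array was the highest of the 6 at 4 of the 28 member probe sets, and apart from 1558924_s_at its lead was at most 0.10. The 4 included the 2 brightest CLIP1 probe sets, 201975_at and 210716_s_at. Without control siRNA replicate 1 their differences were −0.09 and −0.06. A lead of that size was thus seen at 1 of 6 CLIP1 probe sets. The mean over all 6 differed by −0.12, but it includes the −0.58 of 1558924_s_at. The others ranged from −0.13 to 0.09.

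Control siRNA replicate 1 stood apart in the same way at other genes. On that array 105 probe sets, or 0.192% of the array, lay at least 0.5 above every other array, while the same held for 7 probe sets at most on any other array. CLIP1 probe set 1558924_s_at had the 17th largest gap. The 105 included 6 probe sets of MALAT1, a nuclear long noncoding RNA, with gaps of up to 2.40, and probe sets of MEG3, another noncoding RNA (gap 1.18), the chromatin remodeller gene ATRX and the cohesin gene SMC3 (gap 1.33). Probe sets ending in _s_at made up 48.6% of the 105 and 20.7% of the array. One probe set of MAP4, which binds along the microtubule lattice, was among them, with 8.68, 8.73 and 8.79 with ANRIL siRNA and 10.13, 8.76 and 8.98 with control siRNA, while the other 6 MAP4 probe sets differed by −0.14 to −0.03. Probe sets of IQGAP1, PPFIBP1 and ERC1, which take part in anchoring microtubules at the cortex, were also among the 105, with gaps of 0.99, 0.68 and 0.67. So was 1 probe set of EZR, another gene that the study followed up, with a gap of 0.68. All 105 were below 0 in the comparison of the groups, which the choice of a high control array strongly favours. Their median was −0.33 with all arrays and −0.01 without control siRNA replicate 1, and 56 of 105 remained below 0 without it. In the ACTB 3′ minus 5′ difference that array, at 0.56, lay between the other control arrays, and in that of GAPDH it was the lowest of the 6, at −0.010.

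**Figure D2:**
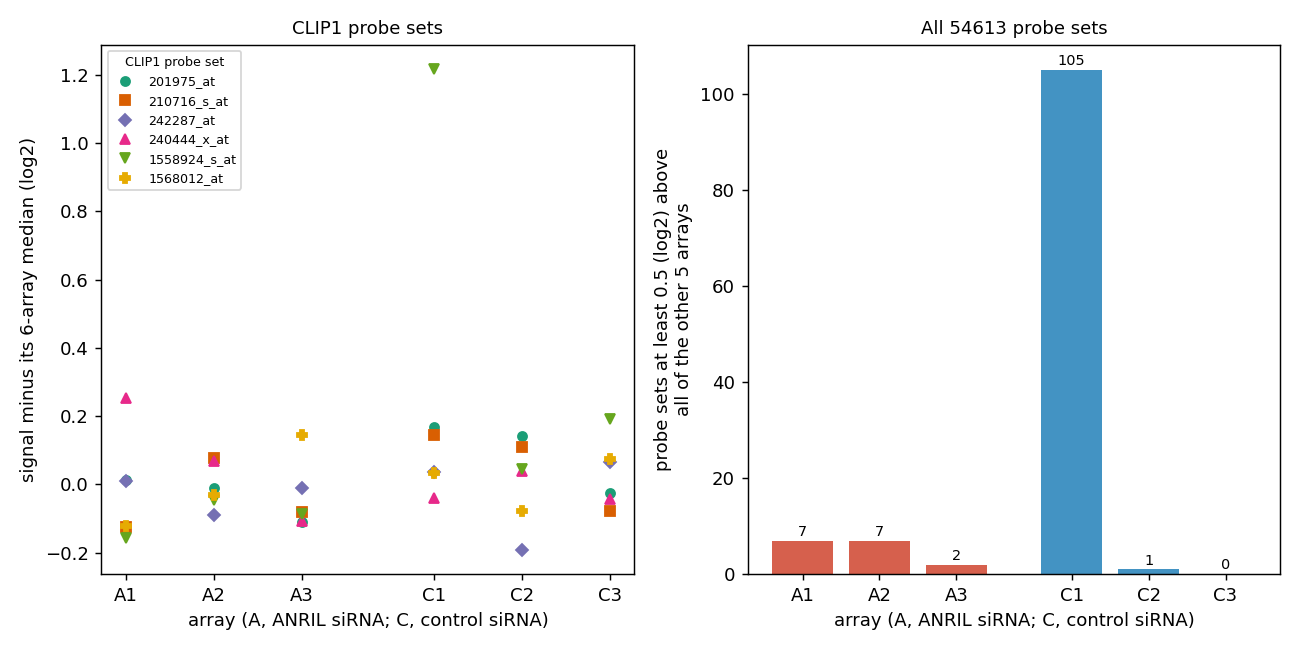
Left, the log2 signal of the 6 CLIP1 probe sets on each array, minus the probe set's median over the 6 arrays, for ANRIL siRNA (A1 to A3) and control siRNA (C1 to C3). Right, the number of all 54613 probe sets that stand at least 0.5 log2 above all of the other 5 arrays, which is 105 for control siRNA replicate 1 and 0 to 7 for the others.

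The other CLIP genes differed little. CLIP2, which encodes CLIP-115, a protein best known from neurons and lost in the Williams syndrome deletion, was read by 1 probe set with 7.33, 7.50 and 7.33 with ANRIL siRNA and 7.42, 7.62 and 7.45 with control siRNA. The highest ANRIL siRNA array lay above 2 of the control arrays. The difference was −0.11 ± 0.08 (limma adjusted p = 0.534), and it was −0.11 after cyclic loess too. CLIP3, whose product CLIPR-59 is found at the trans-Golgi network and in lipid rafts, had 9.33, 9.31 and 9.21 with ANRIL siRNA and 9.37, 9.42 and 9.26 with control siRNA at its brighter probe set. That difference of −0.07 ± 0.07 (limma adjusted p = 0.679) equalled the median of its decile of signal, −0.07, and was 0.00 after cyclic loess.

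CLIP4, a CAP-Gly protein that has been studied less, had 9.85, 9.79 and 9.84 with ANRIL siRNA and 9.93, 9.98 and 9.86 with control siRNA at 226425_at. These groups did not overlap, by a narrow margin. The difference was −0.10 ± 0.07 (limma adjusted p = 0.50), against a median of −0.08 in its decile, and −0.02 after cyclic loess. Its other probe set, 219944_at, differed by −0.03 ± 0.09. At their brightest probe sets all 4 CLIP genes were below 0, by −0.07 to −0.13, with 95% intervals that all included 0.

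The CLASP genes showed the reverse of that sign at several dim probe sets. CLASP1 had 9.46, 9.47 and 9.59 with ANRIL siRNA and 9.47, 9.63 and 9.57 with control siRNA at 212752_at, a difference of −0.05 ± 0.07 (limma adjusted p = 0.764). Its second probe set, at percentile 19.2 of signal, differed by 0.00. The groups overlapped at both.

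CLASP2 was read by 6 probe sets, and its 2 bright ones were among the steadiest of the group. At 212306_at it had 9.20, 9.22 and 9.17 with ANRIL siRNA and 9.21, 9.25 and 9.21 with control siRNA, a difference of −0.03 ± 0.06 (limma adjusted p = 0.846, 95% interval −0.17 to 0.11). At 212309_at it had 8.93, 8.97 and 8.91 with ANRIL siRNA and 8.94, 8.94 and 8.88 with control siRNA, a difference of 0.02 ± 0.06. No array stood apart at either.

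The 4 dim CLASP2 probe sets were all above 0. The smallest p among the 28 was at 1558759_s_at, at percentile 22.4 of signal, with 4.76, 4.89 and 4.76 with ANRIL siRNA and 4.53, 4.60 and 4.51 with control siRNA. Every ANRIL siRNA array was above every control array. The difference was 0.26 ± 0.07 (limma adjusted p = 0.222, 95% interval 0.10 to 0.41), or 1.19-fold, and leaving out each array in turn gave 0.21 to 0.28. It was 0.20 after cyclic loess, with an adjusted p of 0.373. The groups also did not overlap at 1555469_a_at, with 5.92, 5.88 and 5.93 with ANRIL siRNA and 5.87, 5.64 and 5.75 with control siRNA, where the difference was 0.16 ± 0.07 (limma adjusted p = 0.346). The other 2, 212308_at and 238048_at, differed by 0.11 and 0.04. Dim probe sets in general lay above 0, with medians of 0.06 in deciles 2 to 5 of signal, and in the decile of 1558759_s_at 5.7% of probe sets differed by as much or more in size. Which exons or transcripts the CLASP2 probe sets read was not analysed here.

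**Figure D3:**
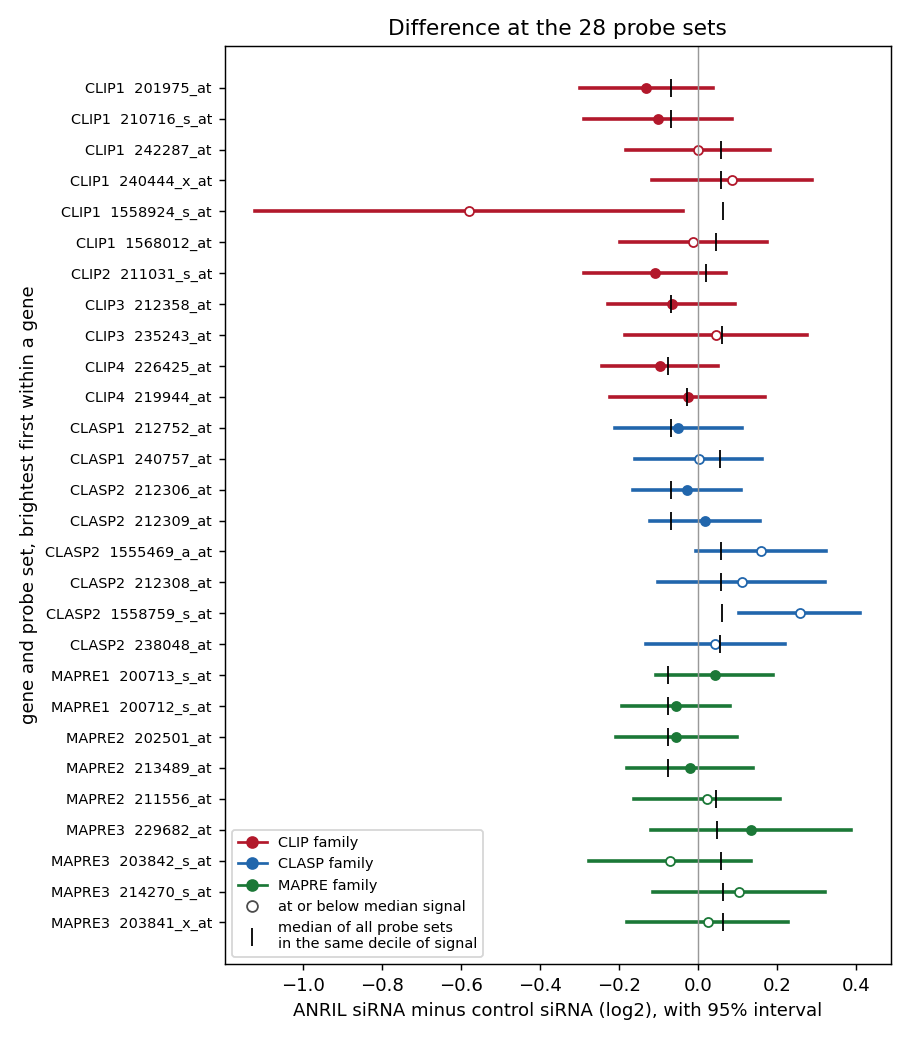
Difference of ANRIL siRNA minus control siRNA (log2, horizontal axis) at each of the 28 probe sets, with its 95% interval from the limma fit, filled points above the median signal and open points at or below it. Black ticks mark the median of all probe sets in the same decile of signal. Of the 28 intervals, those of CLIP1 1558924_s_at and CLASP2 1558759_s_at leave out 0.

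Set against signal, the members followed the array. Of the 14 members above the median signal 3 were above 0, and of the 14 at or below it 11 were. Over all probe sets, 20.7% and 12.9% were above 0 in deciles 9 and 10, and 68.8% to 70.1% in deciles 2 to 4. The 14 bright members had a median of −0.05 and differed by at most 0.13 in size. The 95% intervals of the 28 reached 0.14 to 0.54 to either side of the difference, with a median of 0.18 over the members and 0.17 over all probe sets. A change of the size of those intervals could therefore not be told from none on these arrays. The intervals are unadjusted, and a larger difference could also miss the adjusted threshold. CLASP2 1558759_s_at, at 0.26 ± 0.07 (limma adjusted p = 0.222), was such a case.

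**Figure D4:**
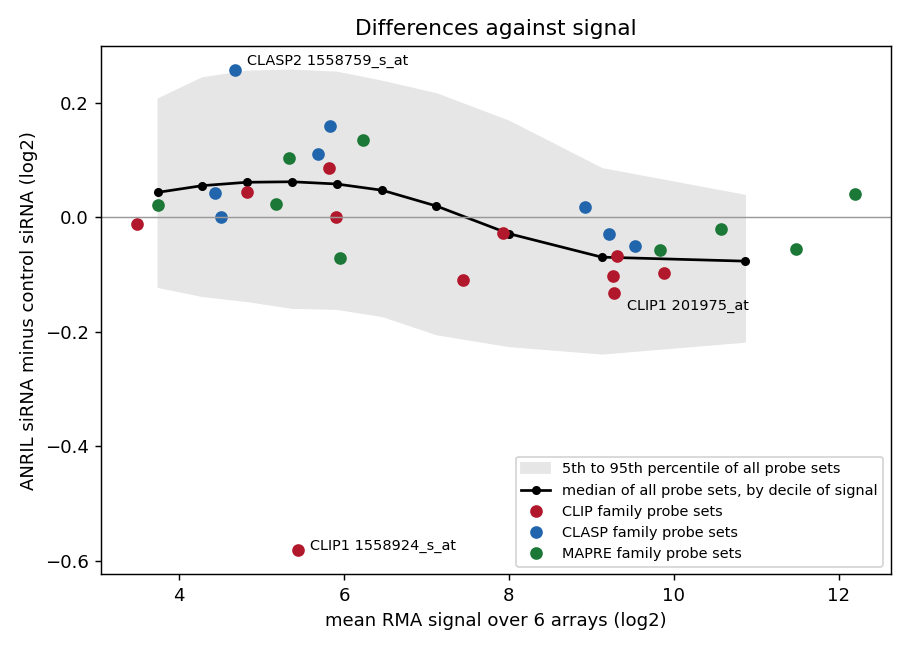
Difference of ANRIL siRNA minus control siRNA (log2) against mean RMA signal over the 6 arrays, for the 28 probe sets coloured by family. The black line joins the medians of all 54613 probe sets by decile of signal, from 0.06 among dim to −0.08 among the brightest, and the band spans their 5th to 95th percentiles.

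With 1 value per gene, that of its brightest probe set, 7 of the 9 genes were below 0 and 2 above, MAPRE1 and MAPRE3. The median was −0.06, and −0.00 over all 19775 genes. None passed over all genes (0%), and the smallest adjusted p was 0.349, for CLIP1. At an unadjusted p under 0.05 there were 0 of 9 members, where 18% of all genes met that mark, 9.83% higher and 8.16% lower. The groups did not overlap at 1 of 9, CLIP4, which was lower, against 23.4% of all genes, 10.6% higher and 12.8% lower. When each gene was taken as the mean of all its probe sets, CLASP2 turned to 0.09 and MAPRE1 to −0.01, and none passed.

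The wider microtubule system was described by 7 lists, in which the limma fit called 0 genes over all genes. Of 24 other plus-end partners 8 were above 0 and 16 below, with a median of −0.02, and 3 of the 24 had an unadjusted p under 0.05, all lower, where 18% of all genes met that mark and 8.16% were lower at it. They were APC, which EB1 carries to plus ends (−0.21 ± 0.06, limma adjusted p = 0.169), SLAIN1, a partner of the polymerase CKAP5 (−0.15 ± 0.06), and AKAP9, a scaffold of the Golgi and centrosome (−0.15 ± 0.06). APC had 9.18, 9.07 and 9.06 with ANRIL siRNA and 9.34, 9.29 and 9.29 with control siRNA, with no overlap. But only 1 of the 5 APC probe sets, and 1 of the 3 of AKAP9, had that sign. Dynein and dynactin, which CLIP1 brings to the tip, were measured at 22 of 24 genes, with 3 above 0 and 19 below and a median of −0.05. In that list 0 had an unadjusted p under 0.05, against 18% of all genes. Its genes of smallest p were DYNLRB1 (−0.12), DYNC1LI1 (−0.11) and NDE1 (−0.11), and the median turned to 0.01 after cyclic loess.

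Genes that anchor microtubules at the cortex held the largest difference of these lists in size, at PHLDB1. PHLDB2 encodes LL5-beta, a cortical platform to which CLASPs bind. It had 10.12, 10.24 and 10.16 with ANRIL siRNA and 10.58, 10.59 and 10.35 with control siRNA, with no overlap. The difference was −0.33 ± 0.08 (limma adjusted p = 0.147), 4 of its 5 probe sets had that sign, and it was −0.25 after cyclic loess. With the trended robust prior, which called 2.74% of all genes, it passed (adjusted p = 0.00653). PHLDB1, which encodes the related LL5-alpha, had 6.77, 6.25 and 6.68 with ANRIL siRNA and 6.29, 6.11 and 6.16 with control siRNA. The groups overlapped, and the difference of 0.38 ± 0.12 did not pass (limma adjusted p = 0.176). The kinase gene ROCK2 differed by −0.16 ± 0.06 (limma adjusted p = 0.212), and 1 of its 2 probe sets had that sign. Of the 19 genes of the list 4 were above 0 and 15 below, with a median of −0.08 that was −0.01 after cyclic loess, and 1 higher and 3 lower of the 19 had an unadjusted p under 0.05, where 9.83% of all genes were higher and 8.16% lower at that mark.

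Tubulin genes had a median of −0.01 over 17 measured genes, 7 above 0 and 10 below. TUBB4A, a beta-tubulin of the nervous system, had 5.54, 5.40 and 5.44 with ANRIL siRNA and 5.09, 4.94 and 5.36 with control siRNA. That difference of 0.33 ± 0.10, at a dim probe set, did not pass (limma adjusted p = 0.169). TUBB2A (−0.09) and TUBE1 (−0.10) followed, and 1 of the 2 TUBE1 probe sets had that sign. Of 16 genes listed for tubulin tyrosination, acetylation and related changes, the first of which sets CLIP binding, 2 were above 0 and 14 below, with a median of −0.06. TTLL5, a polyglutamylase gene, differed by −0.27 ± 0.07 (limma adjusted p = 0.154) and passed with the trended robust prior (adjusted p = 0.0306), while 4 of its 7 probe sets had that sign. TTLL1 and HDAC6 differed by −0.14 and −0.13, and 1 of the 3 HDAC6 probe sets had that sign. VASH1 and SVBP, the tyrosine-removing pair, differed by −0.05 each.

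All 6 other CAP-Gly genes were below 0, with a median of −0.02 that turned to 0.03 after cyclic loess. KIF13B, a kinesin gene, differed by −0.18 ± 0.07 (limma adjusted p = 0.226), DCTN1, the dynactin subunit that binds CLIP-170 and EB1, by −0.09 ± 0.07, and CYLD, a deubiquitinase gene, by −0.02. Among 19 measured genes of lattice and minus-end proteins 9 were above 0 and 10 below, with a median of −0.02. STMN2, a tubulin-binding protein of neurons, differed by 0.23 ± 0.07 (limma adjusted p = 0.172) at a dim level, and the severing gene KATNA1 and the lattice gene MAP1S by −0.17 and −0.16. The medians of these 7 lists lay between −0.08 and −0.01, and the median of the 9 members, −0.06, lay within that span. Over all genes 48.6% were above 0, but over all probe sets only 20.7% and 12.9% in deciles 9 and 10 of signal. After cyclic loess the medians of the 7 lists lay between −0.02 and 0.03.

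**Figure D5:**
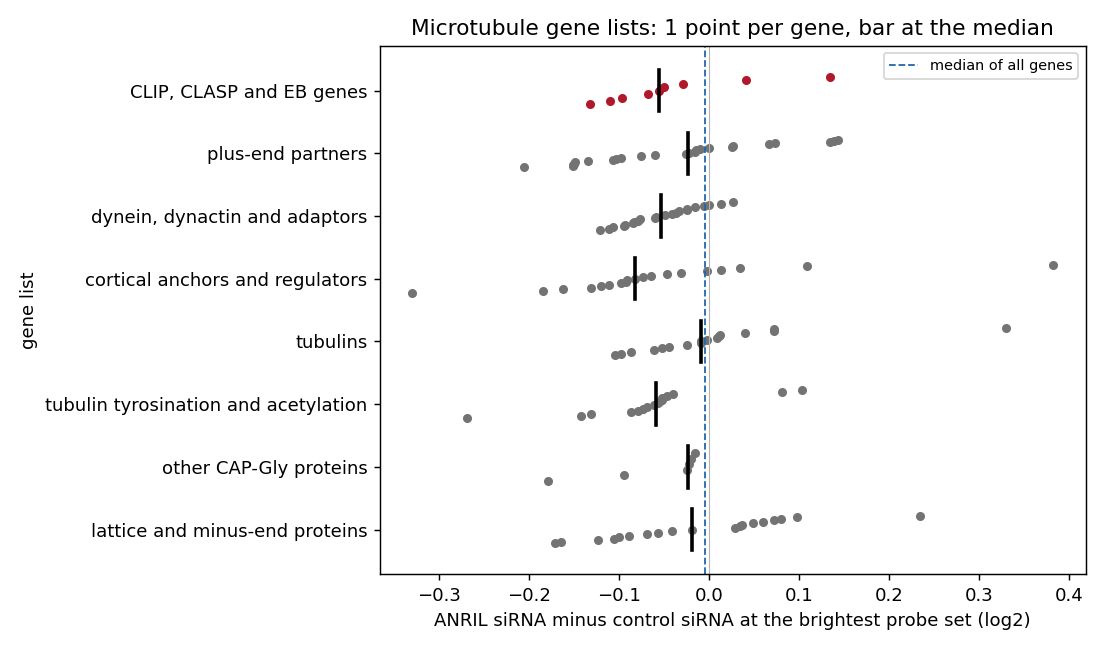
Difference of ANRIL siRNA minus control siRNA (log2, horizontal axis) at the brightest probe set of each gene, for the 9 CLIP, CLASP and EB genes (top) and 7 lists of other microtubule genes, with a bar at each median and a dashed line at the median of all genes. The members lie between −0.13 and 0.13, and the widest points are PHLDB1 and TUBB4A above 0 and PHLDB2 below.

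The genes whose brightest probe set followed that of CLIP1 most closely over the 6 arrays were CCNY (Pearson r = 0.995), TMOD3 (0.994), GATAD1 (0.991), TTI1 (0.990) and ZMYM2 (0.990), out of 13020 genes above the median signal. An r over 6 arrays rests on few points, and 91 of the 13020 genes had an r of 0.95 or more. The 6 points share their labels and scaling. CCNY, a cyclin gene, had 10.80, 10.79 and 10.71 with ANRIL siRNA and 10.92, 10.88 and 10.78 with control siRNA. TMOD3, which caps actin filaments, differed by −0.15 ± 0.07. In both, as at CLIP1 probe set 201975_at, replicate 3 was the lowest array of each group, which their choice by correlation favours. At CLIP1 probe set 210716_s_at replicate 1 was the lowest ANRIL siRNA array.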

How the data were processed

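The deposited table holds log2 values of 54675 probe sets on 6 arrays. RMA, affy and limma are named per the submitters' processing notes. The sources used here give neither their versions nor any filter. RMA corrects background, quantile-normalizes arrays and summarises probes. Of the deposited log2 values, those of 62 control probe sets were not used and 54613 were tested. Of these 41091 had 1 symbol in the platform annotation, which can be old, 1801 had several and 11721 were not listed. Symbols were updated by Entrez identifier through the RefSeq table of GRCh38.p14 (41037 matched). Coordinates are not printed, as the values name no build. A gene was taken at its probe set of highest mean over all arrays.

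The limma functions lmFit and eBayes (version 3.58.1, R 4.3.3) fitted the differences, with no replicate term and a prior that did not vary with signal. P-values were adjusted over all probe sets or genes. Adjusted p-values are two-sided, with a threshold of 0.05. Intervals are 95% and unadjusted. The number of arrays limits the precision. Same-numbered arrays were not taken as pairs, since the labels do not say that they are. Their deviations from group means correlated at 0.06, 0.14 and −0.04, and those of differently numbered arrays at −0.18 to 0.14.

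Named are all members, the 3 genes of smallest p in each list and any gene past the threshold, and the 5 genes most correlated with CLIP1. The comparison of control siRNA replicate 1 with the other arrays, and VASH1, SVBP, MAP4, MALAT1 and the other genes named for it, were chosen after values were seen. Members and lists were chosen with earlier results of these data known. Alternatives were a replicate block, array weights, another prior, other scalings, a signal filter, other probe set rules and each array left out.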

Additional observations from a re-analysis of the deposited data

How the results depend on the processing

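None of the 28 probe set differences, and none of the 9 gene differences, passed under any alternative run; the smallest adjusted p-values were 0.146 (MAPRE1 200713_s_at, cyclic loess with the trended robust prior) and 0.0846 (gene MAPRE1, the same setting). Of 378 probe set values under alternatives 309 kept their sign, and of 142 gene values 127. CLIP1 201975_at, 210716_s_at and 1558924_s_at, CLIP2 211031_s_at, CLIP4 226425_at and CLASP2 1558759_s_at were among those that kept it throughout. With replicate number as a block no member passed either (CLIP1 201975_at −0.13, adjusted p = 0.353), and the block changed no other call. Quantile normalization, repeated, turned the sign at CLIP1 242287_at (−0.055), CLIP3 212358_at (0.0072, also the gene), CLIP3 235243_at (−0.012), CLASP1 212752_at (0.032, also the gene), CLASP1 240757_at (−0.057), CLASP2 212306_at (0.048, also the gene), CLASP2 238048_at (−0.011), MAPRE1 200712_s_at (0.025), MAPRE2 202501_at (0.033, also the gene), MAPRE2 213489_at (0.060), MAPRE2 211556_at (−0.022) and MAPRE3 203841_x_at (−0.039). Cyclic loess, with either prior, turned the same 12, to −0.062, 0.0026, −0.015, 0.024, −0.055, 0.038, −0.012, 0.021, 0.026, 0.061, −0.025 and −0.040 in that order. Both scalings remove the trend with signal by construction. Centring on array medians turned CLIP1 242287_at (−0.050), CLIP3 235243_at (−0.0058), CLASP1 240757_at (−0.049), CLASP2 212309_at (−0.032), CLASP2 238048_at (−0.0070), MAPRE1 200713_s_at (−0.0090, also the gene), MAPRE2 211556_at (−0.029) and MAPRE3 203841_x_at (−0.027). It shifted the median of all probe sets to −0.04 and left 6 of 28 members above 0, where the deposited values had 14. The mean over probe sets turned the genes CLASP2 (0.093) and MAPRE1 (−0.0078). The cause of the other turns was not tested.

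Leaving out 1 array at a time turned the sign of 13 dim or small differences, over ranges of −0.081 to 0.048 (CLIP1 242287_at), −0.0042 to 0.17 (CLIP1 240444_x_at), −0.086 to 0.047 (CLIP1 1568012_at), −0.059 to 0.16 (CLIP3 235243_at), −0.094 to 0.038 (CLIP4 219944_at), −0.043 to 0.047 (CLASP1 240757_at), −0.0030 to 0.031 (CLASP2 212309_at), −0.023 to 0.080 (CLASP2 238048_at), −0.069 to 0.023 (MAPRE2 213489_at), −0.033 to 0.088 (MAPRE2 211556_at), −0.14 to 0.0080 (MAPRE3 203842_s_at), −0.014 to 0.17 (MAPRE3 214270_s_at) and −0.051 to 0.098 (MAPRE3 203841_x_at). Over the whole array 29 probe sets passed higher and 315 lower under the trended robust prior, which after cyclic loess gave 20 and 58; median centring called 4 lower, and the filter at the median signal 1 lower. At an unadjusted p under 0.05 there were 4891 probe sets higher and 3355 lower, 2 of them members. At the gene level 18% of all genes met that mark. So did 3 of 24 plus-end partners, 4 of 19 cortical anchors, 1 of 17 tubulins and 1 of 16 tyrosination and acetylation genes. Further, 1 of 6 CAP-Gly genes, 1 of 19 lattice genes, 6 of 10 endothelial markers (all lower) and 2 of 13 markers of other cells did. The trended prior called 2.74% of all genes. It called 1 of 19 cortical anchors (also after cyclic loess) and 1 of 16 tyrosination and acetylation genes. It also called 5 of 10 endothelial markers (3 after cyclic loess) and 1 of 13 markers of other cells, ACTA2 (adjusted p = 0.013). Median centring and the signal filter called 2 endothelial markers each. With 3 arrays per group and dim probe sets at 14 of 28, differences under about 0.18 lay within the intervals. These intervals are unadjusted, and larger differences also missed the adjusted threshold.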
